A study of Gallus gallus with 20 samples.

Results

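The ligands and receptors of the tumour necrosis factor (TNF) superfamily carry death, survival and inflammatory signals between immune cells. The ligands are mostly trimers held on the cell membrane or shed from it, and the receptors either hold a death domain that recruits caspases through adaptors or bind TRAF proteins that lead to NF-kB and MAP kinases. Macrophages use the family both to send signals (TNF itself, TNFSF10, TNFSF13B, TNFSF15) and to receive them (TNFRSF1A, TNFRSF1B), and in mammals bacterial endotoxin is a classic inducer of several members. The genes described here were chosen by name: TNFSF8, TNFSF10, TNFSF13B, TNFSF15, TNFRSF1A, TNFRSF1B, TNFRSF6B, TNFRSF21 and LITAF. Every probe set that bears such a name in the array annotation was taken, whatever its values. Of the 9 names 8 were found, on 22 of the 38439 probe sets tested, where the annotation named 13782 different genes in all. TNFSF10 had 7 probe sets, TNFRSF1B 4, TNFSF13B and TNFSF15 3 each, LITAF 2, and TNFSF8, TNFRSF6B and TNFRSF21 1 each. LITAF is a member of the group by its name alone. Its product, an endosomal membrane protein first described in human cells as an endotoxin-induced factor acting on the TNF gene, is neither a ligand nor a receptor of the superfamily, although the RefSeq gene table lists TNF-alpha among its synonyms in chicken. The RefSeq table also placed TNFSF8 and TNFSF15 side by side on the chicken genome, with 0 annotated genes between them.

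The cells were HD11, a single chicken macrophage-like line transformed by an avian myelocytomatosis virus. Cultures received 1 μg/ml of endotoxin from Salmonella typhimurium-798 or the vehicle alone (0 μg/ml), and RNA, pooled from several flasks per the study's methods, was taken at 1, 2, 4 or 8 hours post stimulation (hps). Each time was measured on 3 Affymetrix arrays of endotoxin-treated cells and 2 of vehicle-treated cells, 20 in all. Replications 1 and 2 held both treatments and replication 3 endotoxin alone. Values are RMA levels on the log2 scale, so that a difference of 1 is a doubling. Differences are endotoxin minus vehicle from a limma fit of all 20 arrays, in which 8 group terms and replication entered, with the standard error (SE) or 95% interval of that fit, and a probe set was called at a q value under 0.05. Replication 3 has no vehicle arrays, so it enters a difference only through the course over time of endotoxin-treated cells. The mean difference of all times rests on replications 1 and 2 alone. Fitted differences can therefore depart from differences of group means. Different probe sets bind with different strength, so levels are compared between arrays and not between probe sets.

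The array medians lay between 5.25 and 5.33 and the lowest values between 2.25 and 2.37, and 11 of the 22 probe sets had a mean above the median over all probe sets. The values carry no detection call, so that for the dimmer probe sets it is not known whether transcript was measured at all. Of 18 macrophage markers 16 were measured, with mean levels from 5.46 to 13.33. The actin control probe set at the 3′ end was brighter than that at the 5′ end by 0.22 and 0.35 on both vehicle arrays at 4 hps, and by 0.19 and 0.11 on endotoxin replicate 3 at 1 and 2 hps. Elsewhere this difference ran from -0.0018 to 0.11 with vehicle, from -0.15 to 0.011 with endotoxin at 4 hps, and from -0.058 to 0.079 with endotoxin at other times. The vehicle arrays at 4 hps are therefore a reference that stands apart, and results at that time are also given against the vehicle arrays of the other 3 times.

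Few of the ligand and receptor probe sets passed the test between endotoxin-treated and vehicle-treated cells. None of the 22 probe sets was called at 1 hps, where 0.0364% of all probe sets were called, at 2 hps (0.0859%, with 0.0806% higher and 0.0052% lower) or at 8 hps (0.159%, with 0.148% higher and 0.0104% lower). At 4 hps 1 of 22 was called, a TNFSF15 probe set that was lower with endotoxin, where 8.08% of all probe sets were called in either direction and 3.13% as lower. Averaged over the 4 times, 0 of 22 were called, against 0.51% of all (0.424% higher and 0.0859% lower). Without adjustment, members with p under 0.05 numbered 1, 0, 5 and 1 at 1, 2, 4 and 8 hps, which is 4.55%, 0%, 22.7% and 4.55% of 22, against 3.48%, 4.33%, 22.4% and 5.35% of all probe sets. The share of members past either threshold was thus near that of the whole array at each time. With Benjamini-Hochberg adjustment in place of the histogram q value the member counts were the same, 0, 0, 1 and 0. The share of all probe sets was not counted under that adjustment.

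The intervals bound the changes in RMA signal under the main fit alone, each taken by itself. They take no account of the choice of reference, arrays or covariate. For TNFRSF1B Gga.5148.1.S1_at at 4 hps the interval was 0.10 to 0.90. Its difference was -0.01 (SE 0.15) against the other vehicle arrays and -0.25 (SE 0.26) with the actin covariate. For the dimmer probe sets they do not bound a change of transcript. At each of the 4 times all 22 intervals lay within 1 log2 unit of 0, as did 99.9%, 99.7%, 97.9% and 99.7% of all probe sets. Within 0.5 log2 units lay 17, 19, 17 and 20 of the 22 intervals at 1, 2, 4 and 8 hps. That is 77.3%, 86.4%, 77.3% and 90.9%, beside 92.9%, 91.8%, 79.4% and 91.7% of all probe sets. For the mean of the 4 times all 22 did, beside 99.2% of all, and the members' bounds ran from -0.36 to 0.20. The median difference of the members was -0.04, -0.03, -0.06 and -0.004 at the 4 times, beside -0.003, -0.002, -0.02 and -0.003 over all probe sets. More members lay below 0 than above it at each time, with 15 below and 7 above at 1 hps, 17 and 5 at 2 hps, 15 and 7 at 4 hps, and 12 and 10 at 8 hps. For the mean of the 4 times 18 lay below 0 and 4 above, where 20271 of all probe sets lay below and 18168 above. Several probe sets are of the same gene, so these tallies are not independent readings and carry no test. At 4 hps against the other vehicle arrays the 22 differences ran from -0.22 to 0.22, with 18 below 0 and 4 above, and the lowest q was 0.212.

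**Figure D1:**
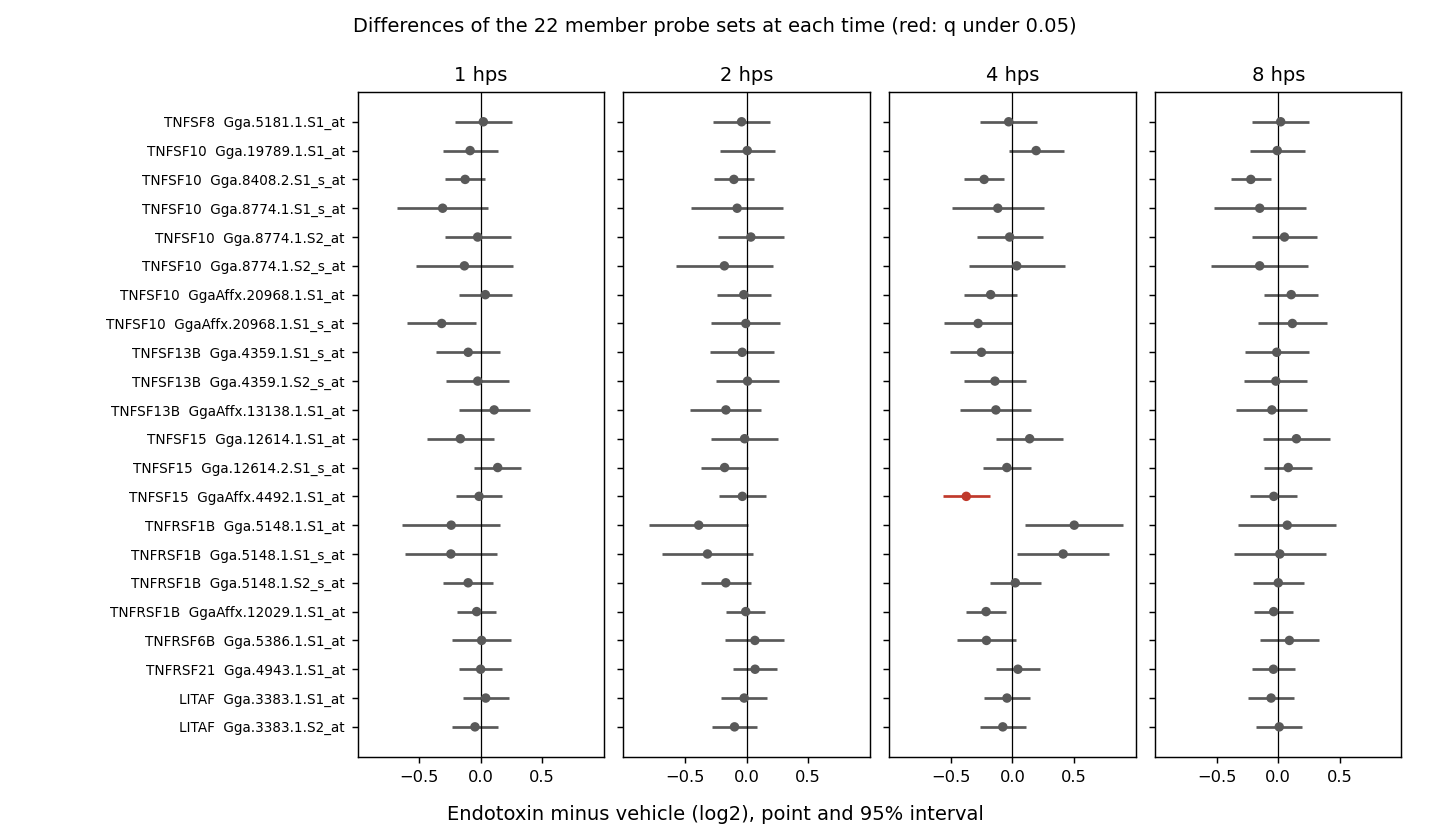
Endotoxin minus vehicle on the log2 scale (horizontal axis) for each of the 22 probe sets (rows, with gene name) at 1, 2, 4 and 8 hps (panels), as point and 95% interval from limma, 3 against 2 arrays. All intervals lie between -1 and 1, and the red interval of a TNFSF15 probe set at 4 hps (-0.57 to -0.18) is the single one with q under 0.05.

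TNFSF15 is a ligand of the death receptor TNFRSF25 that costimulates T cells and, in mammals, is made by endothelial cells and by stimulated myeloid cells. The called probe set was GgaAffx.4492.1.S1_at. On the vehicle arrays at 4 hps it read 4.34 and 4.04 in replications 1 and 2, and on the endotoxin arrays 3.77, 3.90 and 3.98 in replications 1, 2 and 3, so that the groups did not overlap. The difference was -0.37 (SE 0.09, q = 0.0195), an RMA signal 0.771 times that of vehicle. At 1, 2 and 8 hps the differences were -0.01, -0.03 and -0.04, and the interaction of dose and time had q = 0.289, with 0% of all probe sets called for interaction. The order of its 8 group means ran from 4.19 ± 0.21 (SD, n = 2) in vehicle at 4 hps to 3.86 ± 0.028 (SD, n = 2) in vehicle at 8 hps, and all 7 pairs of neighbours in that order overlapped. The endotoxin-treated cells at 4 hps, at 3.88 ± 0.11 (SD, n = 3), lay next to the vehicle-treated cells at 8 hps.

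The call on TNFSF15 GgaAffx.4492.1.S1_at rested on few arrays. Without vehicle replicate 1 at 4 hps the difference was -0.21 (q = 0.24), and without endotoxin replicate 1 at 4 hps it was -0.34 (q = 0.0732). Against the vehicle arrays of the other 3 times it was -0.12 (q = 0.408), and without the replicate block -0.31 (q = 0.175). With the actin signal difference as a covariate it was -0.19 (SE 0.16, q = 0.49), where the main fit had an SE of 0.09. The actin values of the 2 treatments did not overlap at 4 hps. The covariate fit therefore separates dose from actin signal poorly, and the lost call does not decide between them. Other fits left out arrays. Over 23 fits that each left out an array or a replication the difference ran from -0.59 to -0.18, and the call was kept in 19. Most of these fits left out an array of another time, which does not enter the groups compared at 4 hps. Without the whole of replication 1 the difference was -0.18, and without replication 3 it was -0.36 (q = 0.0699). Against the other vehicle arrays 0 of 22 members were called at 4 hps in either direction, where 0.653% of all probe sets were called lower and 0.645% higher.

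The other TNFSF15 probe sets did not share this pattern. Gga.12614.1.S1_at differed by -0.16, -0.02, 0.14 and 0.15 at 1, 2, 4 and 8 hps, and Gga.12614.2.S1_s_at by 0.14, -0.18, -0.05 and 0.08. At 4 hps against the other vehicle arrays they differed by 0.22 (q = 0.298) and -0.04 (q = 0.702). Their levels over the 20 arrays lay between 2.51 and 3.19 and between 2.90 and 3.33, near the lowest values of an array. The called probe set was dim as well, at 3.75 to 4.34. Across the 20 arrays the correlations among the 3 TNFSF15 probe sets were -0.22, 0.05 and 0.06, given as a description over arrays that share groups and replications. Those correlations left replication in the values. The named genes most like GgaAffx.4492.1.S1_at over the 20 arrays were instead found with the fitted replication terms taken out. They were MSX1 (Pearson's r = 0.93), MBOAT4 (0.92), ZNF236 (0.89), LRRC48 (0.89) and SLC15A2 (0.88). In the same order, their differences at 4 hps were -0.25, -0.53, -0.26, -0.34 and -0.40. These genes were picked over the same arrays that give the TNFSF15 difference. A shared direction at 4 hps therefore follows from the choice and adds nothing to the TNFSF15 call.

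TNFSF8, the ligand of the lymphocyte receptor TNFRSF8, had 1 probe set, Gga.5181.1.S1_at, which read 3.37 to 3.83 over the 20 arrays. Its differences were 0.02, -0.04, -0.03 and 0.02 at 1, 2, 4 and 8 hps, each with an SE of 0.11, and the groups overlapped at every time. The values of this neighbour of TNFSF15 at 4 hps were 3.47 and 3.75 with vehicle and 3.48, 3.55 and 3.83 with endotoxin, which overlapped. TNFSF8 differed by -0.05 (q = 0.679) from the other vehicle arrays at 4 hps.

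TNFSF10 is the death ligand that signals apoptosis through TNFRSF10B and its relatives. Of its 7 probe sets, Gga.8408.2.S1_s_at came nearest to a call. With vehicle, replications 1 and 2 read 7.51 and 7.68 after 1 hour, 7.61 and 7.71 after 2, 7.71 and 7.68 after 4, and 7.54 and 7.67 after 8. With endotoxin, replications 1 to 3 read 7.47, 7.46 and 7.38 after 1 hour, 7.63, 7.51 and 7.44 after 2, 7.39, 7.52 and 7.39 after 4, and 7.35, 7.41 and 7.31 after 8. The endotoxin arrays lay below both vehicle arrays at 1, 4 and 8 hps, and at 2 hps the groups overlapped.

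The differences of this TNFSF10 probe set, Gga.8408.2.S1_s_at, were -0.13, -0.10, -0.23 (q = 0.0541) and -0.22 (q = 0.703), each with an SE of 0.08. Averaged over the 4 times the difference was -0.17 (SE 0.04, unadjusted p = 0.000709, q = 0.0911), and the vehicle groups held the 4 highest of the 8 group means. This average was -0.13 in replication 1 and -0.21 in replication 2, and replication 3 does not enter it. All 7 neighbours in the order of group means overlapped, from vehicle at 4 hps (7.69 ± 0.024, SD, n = 2) down to endotoxin at 8 hps (7.36 ± 0.050, SD, n = 3). At 4 hps it was -0.16 (q = 0.212) against the other vehicle arrays, and at 8 hps, with the vehicle arrays of the other 3 times as reference, -0.26 (q = 0.0122). The reference at 8 hps takes in the vehicle arrays at 4 hps, where this probe set had its highest group mean. Both of these comparisons differ in time as well as dose. The probe set was thus uncalled under both references at 4 hps, and its call depended on the reference at 8 hps. Scaling moved the call at 4 hps, with -0.28 (q = 0.0292) under cyclic loess. With the actin covariate the difference at 4 hps was -0.35 (SE 0.135, q = 0.209). The difference stayed below 0 in each of these fits.

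The other 6 TNFSF10 probe sets moved in mixed directions. GgaAffx.20968.1.S1_s_at differed by -0.32 (SE 0.13, unadjusted p = 0.0291, q = 1), -0.01, -0.28 (q = 0.135) and 0.11 at the 4 times in order. At 4 hps it read 5.73 and 5.91 with vehicle and 5.68, 5.59 and 5.54 with endotoxin, which did not overlap, while at 1 hps the third endotoxin array (5.86) lay between the vehicle arrays (5.80 and 5.94). Gga.19789.1.S1_at went the other way at 4 hps, with 2.99 and 3.07 in vehicle and 3.16, 3.16 and 3.30 in endotoxin, a difference of 0.19 (q = 0.177). This dim probe set read 2.99 to 3.45 over the 20 arrays, well below the array medians. Gga.8774.1.S1_s_at differed by -0.31, -0.08, -0.12 and -0.15 with an SE of 0.17, and Gga.8774.1.S2_at, Gga.8774.1.S2_s_at and GgaAffx.20968.1.S1_at by -0.18 to 0.10 over the 4 times. Against the other vehicle arrays these 6 TNFSF10 probe sets differed at 4 hps by 0.005 for Gga.19789.1.S1_at (q = 0.781) and by -0.22 (Gga.8774.1.S1_s_at, q = 0.428) to -0.08 (GgaAffx.20968.1.S1_at, q = 0.593) for the rest. Of the 21 pairs of TNFSF10 probe sets, 18 had a correlation below 0.3 across the 20 arrays, and the highest, between Gga.8774.1.S1_s_at and Gga.8774.1.S2_s_at, was 0.74. None of the 7 was called in the main fit. Noise around an unchanged level also gives low correlations, so these do not show that the TNFSF10 probe sets disagree.

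TNFSF13B is the B cell survival factor that macrophages and other myeloid cells release. Its probe sets read 3.99 to 4.60 (Gga.4359.1.S1_s_at), 3.66 to 4.25 (Gga.4359.1.S2_s_at) and 4.21 to 4.97 (GgaAffx.13138.1.S1_at) over the 20 arrays. At 4 hps they differed by -0.25 (SE 0.12, q = 0.141), -0.14 (q = 0.311) and -0.13 (q = 0.359), and at the other times by -0.17 to 0.11. The TNFSF13B differences at 4 hps were -0.19 (q = 0.344), 0.01 (q = 0.772) and -0.06 (q = 0.69) against the other vehicle arrays. The first read 4.49 and 4.37 with vehicle and 4.24, 4.22 and 4.16 with endotoxin at 4 hps, which did not overlap. The third was separated at 2 hps, with 4.77 and 4.84 in vehicle against 4.69, 4.46 and 4.56 in endotoxin. None of the 3 probe sets was called at any time.

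Of the 22 member probe sets, 6, 2, 6 and 2 were lower on every endotoxin array than on either vehicle array at 1, 2, 4 and 8 hps, where this held for 7.27%, 9.2%, 15.7% and 9.95% of all probe sets. The 6 at 1 hps were of TNFSF10, TNFSF15 and TNFRSF1B alone. Probe sets of the same gene are not independent readings, so these counts carry no test. Higher on every endotoxin array were 1, 0, 1 and 1, against 9.1%, 10.8%, 15.7% and 10.3% of all. No member was separated in the lower direction at all 4 times, as 0.052% of all probe sets were.

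**Figure D2:**
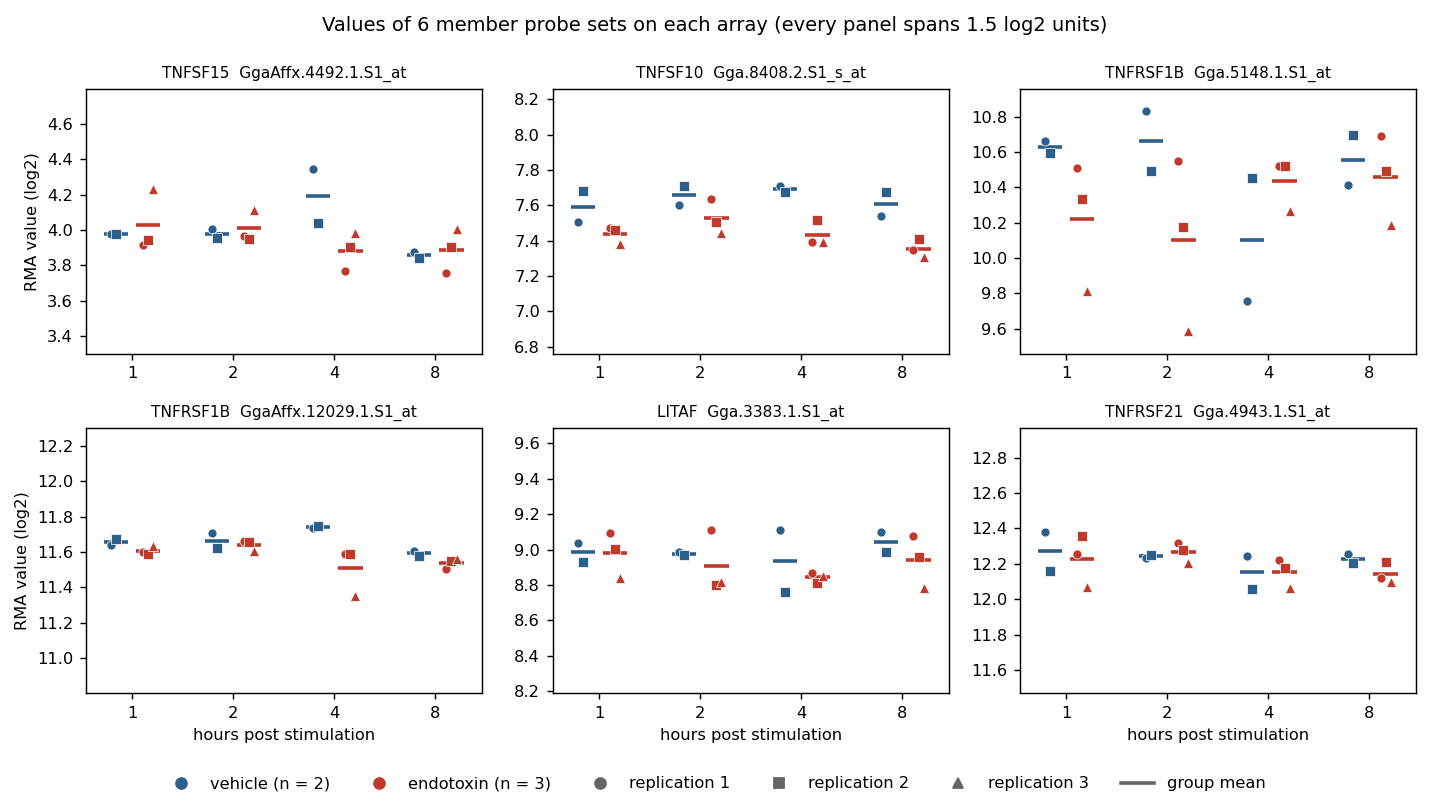
RMA level on the log2 scale (vertical axis, 1.5 log2 units in each panel) at 1, 2, 4 and 8 hps (horizontal axis) for 6 probe sets of TNFSF15, TNFSF10, TNFRSF1B (both kinds of pattern), LITAF and TNFRSF21. TNFSF15 and TNFSF10 are shown by their probe set of lowest p at 4 hps, and TNFRSF1B by those of largest difference and of lowest p at 4 hps. These are not typical of their genes. LITAF and TNFRSF21 are shown by their brightest probe set. Each point is an array, blue for vehicle (n = 2) and red for endotoxin (n = 3), its shape gives the replication and bars are group means. TNFSF15 GgaAffx.4492.1.S1_at at 4 hps has vehicle points at 4.34 and 4.04 above the endotoxin points, and TNFRSF1B Gga.5148.1.S1_at has its low points at 9.59 to 9.82.

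TNFRSF1B is the TNF receptor that lacks a death domain and, in mammals, signals through TRAF2 in leukocytes. Its 4 probe sets fell into 2 kinds. With vehicle, Gga.5148.1.S1_at read 10.66 and 10.59 after 1 hour, 10.83 and 10.49 after 2, 9.75 and 10.45 after 4, and 10.41 and 10.70 after 8. With endotoxin it read 10.51, 10.33 and 9.82 after 1 hour, 10.55, 10.18 and 9.59 after 2, 10.52, 10.52 and 10.27 after 4, and 10.69, 10.50 and 10.19 after 8. The 3 low arrays were vehicle replicate 1 at 4 hps and endotoxin replicate 3 at 1 and 2 hps, and all others lay between 10.18 and 10.83.

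The differences of TNFRSF1B Gga.5148.1.S1_at were -0.24, -0.39, 0.50 (95% interval 0.10 to 0.90, q = 0.0786) and 0.07, each with an SE of 0.19, so that the sign turned between 2 and 4 hps. The interaction of dose and time had q = 0.252. Gga.5148.1.S1_s_at gave -0.24, -0.32, 0.41 and 0.01 and correlated with it at 0.97 across the 20 arrays, and Gga.5148.1.S2_s_at gave -0.10, -0.17, 0.02 and -0.0001 and correlated at 0.84. The 3 probe sets share a transcript number in their names and are not independent readings.

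On the 3 arrays where Gga.5148.1.S1_at was low, the actin signal difference was 0.35 (vehicle replicate 1 at 4 hps), 0.19 and 0.11 (endotoxin replicate 3 at 1 and 2 hps). It was 0.22 on vehicle replicate 2 at 4 hps, where this TNFRSF1B probe set read 10.45, and 0.11 on vehicle replicate 1 at 1 hps, where it read 10.66. Without vehicle replicate 1 at 4 hps the difference at 4 hps was 0.09, and without vehicle replicate 2 it was 0.91 (q = 0.00659). Against the other vehicle arrays it was -0.01 (and 0.02 and -0.05 for TNFRSF1B Gga.5148.1.S1_s_at and Gga.5148.1.S2_s_at). With the actin signal difference as a covariate it was -0.25 (SE 0.26, q = 0.557). The actin values of the 2 treatments did not overlap at 4 hps, so the covariate fit separates dose from actin signal poorly. The size of this TNFRSF1B difference at 4 hps therefore changed with the reference, and the covariate fit does not settle its sign.

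**Figure D3:**
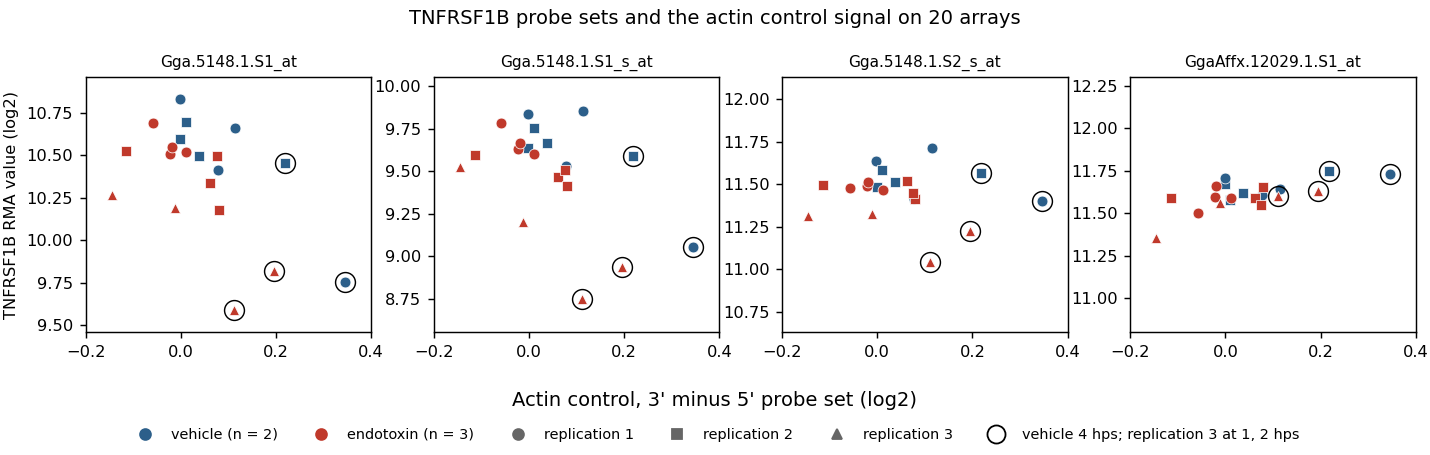
RMA level (log2) of the 4 TNFRSF1B probe sets (vertical axes, 1.5 log2 units each) against the actin control signal difference, 3′ minus 5′ (log2, horizontal axis), for the 20 arrays, blue for vehicle and red for endotoxin, with the vehicle arrays at 4 hps and endotoxin replicate 3 at 1 and 2 hps circled. The circles mark named arrays and not an actin cut. Vehicle replicate 1 at 1 hps (0.114) is uncircled, though above endotoxin replicate 3 at 2 hps (0.111). In the first 2 panels 3 of the 4 circled arrays lie low, at 9.59 to 9.82 for Gga.5148.1.S1_at, and in the panel of GgaAffx.12029.1.S1_at they do not.

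The fourth TNFRSF1B probe set, GgaAffx.12029.1.S1_at, behaved otherwise. It read between 11.35 and 11.75 over the 20 arrays and correlated at -0.05 with Gga.5148.1.S1_s_at. At 4 hps the vehicle arrays read 11.73 and 11.75 and the endotoxin arrays 11.59, 11.59 and 11.35, which did not overlap. The difference was -0.21 (SE 0.08, q = 0.066), opposite in sign to that of Gga.5148.1.S1_at at the same time, and it was -0.11 (q = 0.37) against the other vehicle arrays. At 1, 2 and 8 hps it was -0.03, -0.01 and -0.04.

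TNFRSF6B is, in humans, a soluble decoy that binds FASLG, TNFSF14 and TNFSF15. Its 1 probe set, Gga.5386.1.S1_at, read 4.83 to 5.28 over the 20 arrays and differed by 0.01, 0.07, -0.21 (SE 0.11, q = 0.17) and 0.09 at 1, 2, 4 and 8 hps. At 4 hps it read 5.24 and 5.13 with vehicle and 4.95, 4.83 and 5.12 with endotoxin, groups that were apart by a narrow gap. From the other vehicle arrays TNFRSF6B differed by -0.02 (q = 0.748).

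TNFRSF21 is a death-domain receptor best known in neurons and lymphocytes. Its 1 probe set, Gga.4943.1.S1_at, had the smallest range of the 22, 0.32 over the 20 arrays, from 12.06 to 12.38. The differences were 0.0003, 0.07, 0.04 and -0.04 (SE 0.08 at each time), and the groups overlapped at all 4 times. TNFRSF21 differed by -0.05 (q = 0.643) from the other vehicle arrays at 4 hps. The interval of the mean over the 4 times ran from -0.08 to 0.11.

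TNFRSF1A, the death-domain receptor for TNF found on most cells, was not among the names in the annotation. A probe set named RCJMB04_18h18 carried a RefSeq accession that the gene table gives to TNFRSF1A. It stands outside the 22. It read 9.27 to 9.50 over the 20 arrays and differed by -0.07, -0.03, 0.03 and -0.10 (SE 0.07 at each time), and it was called at no time.

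LITAF was measured by a pair of probe sets that correlated at 0.80 across the 20 arrays. Gga.3383.1.S1_at read 9.04 and 8.93 with vehicle and 9.09, 9.00 and 8.84 with endotoxin at 1 hps, and 9.11 and 8.76 against 8.87, 8.81 and 8.85 at 4 hps. The groups overlapped at all 4 times for both LITAF probe sets. The differences were 0.04, -0.02, -0.04 and -0.06 for Gga.3383.1.S1_at and -0.05, -0.10, -0.08 and 0.01 for Gga.3383.1.S2_at, each with an SE of 0.09. The LITAF differences at 4 hps were -0.11 (q = 0.439) and -0.18 (q = 0.213) against the other vehicle arrays. For the latter probe set, the change over time within endotoxin-treated cells had q = 0.056, from 7.76 ± 0.10 at 8 hps to 7.52 ± 0.041 at 4 hps (SD, n = 3).

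No member was called for change over time, neither in endotoxin-treated cells, where 10.9% of all probe sets were called, nor in vehicle-treated cells, where 7.55% were. The lowest q within vehicle-treated cells belonged to the TNFSF10 probe set GgaAffx.20968.1.S1_at (q = 0.078), which read 5.29 and 5.19 at 2 hps and 4.88 and 4.84 at 8 hps. With endotoxin the same probe set read 5.19, 5.22 and 5.27 at 2 hps and 4.92, 4.97 and 5.04 at 8 hps (q = 0.1).

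The genes around these members in the TNF pathway were each represented by their brightest probe set. Of 14 other TNF superfamily ligands 5 were measured (TNFSF4, CD40LG, FASLG, TNFSF11 and EDA), and TNF was not among the names. EDA, the ectodysplasin of skin appendage formation, rose at 4 hps by 0.62 (SE 0.16, q = 0.0235), but differed by -0.06 (q = 0.701) from the other vehicle arrays. The other 4 were not called at any time, and the list's median difference was 0.002, -0.08, -0.07 and 0.005 at 1, 2, 4 and 8 hps.

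Of 23 other receptors 15 were measured. FAS, the death receptor of FASLG, fell late, with differences of -0.57 at 4 hps (SE 0.08, q = 0.00158) and -0.60 at 8 hps (SE 0.08, q = 0.00206). The difference at 4 hps was -0.67 (q = 3.68e-05) against the other vehicle arrays. TNFRSF10B, a receptor of TNFSF10, rose at 4 hps by 0.79 (SE 0.16, q = 0.0116), with a difference of 0.31 (q = 0.239) against the other vehicle arrays. TNFRSF14, a receptor that binds TNFSF14, fell at 4 hps by 0.26 (q = 0.0419), with -0.08 (q = 0.535) against the others. No other receptor of the list was called, and no receptor was called at 1 or 2 hps. TNFRSF25, the receptor of TNFSF15, differed by -0.13, -0.01, -0.08 and -0.03, and TNFRSF8, the receptor of TNFSF8, by -0.10, -0.23, 0.06 and 0.18. The list's median was -0.07, -0.01, -0.12 and -0.02. FAS was thus the single receptor of the list called under both references at 4 hps.

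Among 31 measured genes of TNF receptor signalling, 3, 1, 6 and 1 rose at the 4 times in order by their brightest probe set. By that probe set 0 fell, and 0.0364%, 0.0806%, 4.95% and 0.148% of all probe sets were called higher. By any of a gene's probe sets, 13 genes were called higher and 1 lower at 4 hps, with TNIP1 called in both directions. The study had already reported TNFAIP3, TRAF3 and TNIP2 as responders at 1 hps in these data. The list was chosen with earlier results known, so its counts beside the whole array are no test of an excess. TNFAIP3, the ubiquitin-editing enzyme that ends signalling to NF-kB, rose at all 4 times, by 1.40, 1.51, 0.93 and 0.90 in order (SE 0.08). TRAF3, an adaptor that restrains the alternative NF-kB pathway, was higher by 0.88 at 1 hps (q = 0.03) and 0.71 at 4 hps (q = 0.00918), and TNIP2, a partner of TNFAIP3, rose by 0.82 (q = 0.03) and 0.77 (q = 0.00547) at the same times. At 4 hps TRADD, an adaptor of some death-domain receptors, rose by 0.57 (q = 0.0241), TRAF1 by 0.58 (q = 0.0377) and the kinase MAP3K5 by 0.41 (q = 0.0129).

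Against the other vehicle arrays at 4 hps, TRAF3 (0.66), TNFAIP3 (1.07) and TNIP2 (0.68) were again called higher, TRAF5 was called lower (-0.37, q = 0.0372), and TRADD (0.04), TRAF1 (0.27) and MAP3K5 (0.19) were not called. The initiating kinase and caspase of the receptor complexes, RIPK1 and CASP8, were not called at any time, with differences of -0.02 and 0.14 at 4 hps. The list's median difference was 0.03, -0.02, 0.14 and 0.07 at 1, 2, 4 and 8 hps.

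TNFAIP3 and TNIP2 also have names of the TNF-induced kind. They were counted above with receptor signalling, where TNFAIP3 was called higher at every time. Of 12 other measured genes with names that mark them as TNF-induced or TNF-related, 0 were called at 1, 2 or 8 hps. TNFAIP8 (-0.54, q = 0.012) and C1QTNF2 (-0.29, q = 0.0444) fell at 4 hps. The share of all probe sets called lower at that time was 3.13%. Neither gene was called against the other vehicle arrays (-0.24 and -0.04). TNFAIP6, a secreted hyaluronan-binding protein, differed by 0.10, 0.46, 0.29 and 0.31 and was not called.

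**Figure D4:**
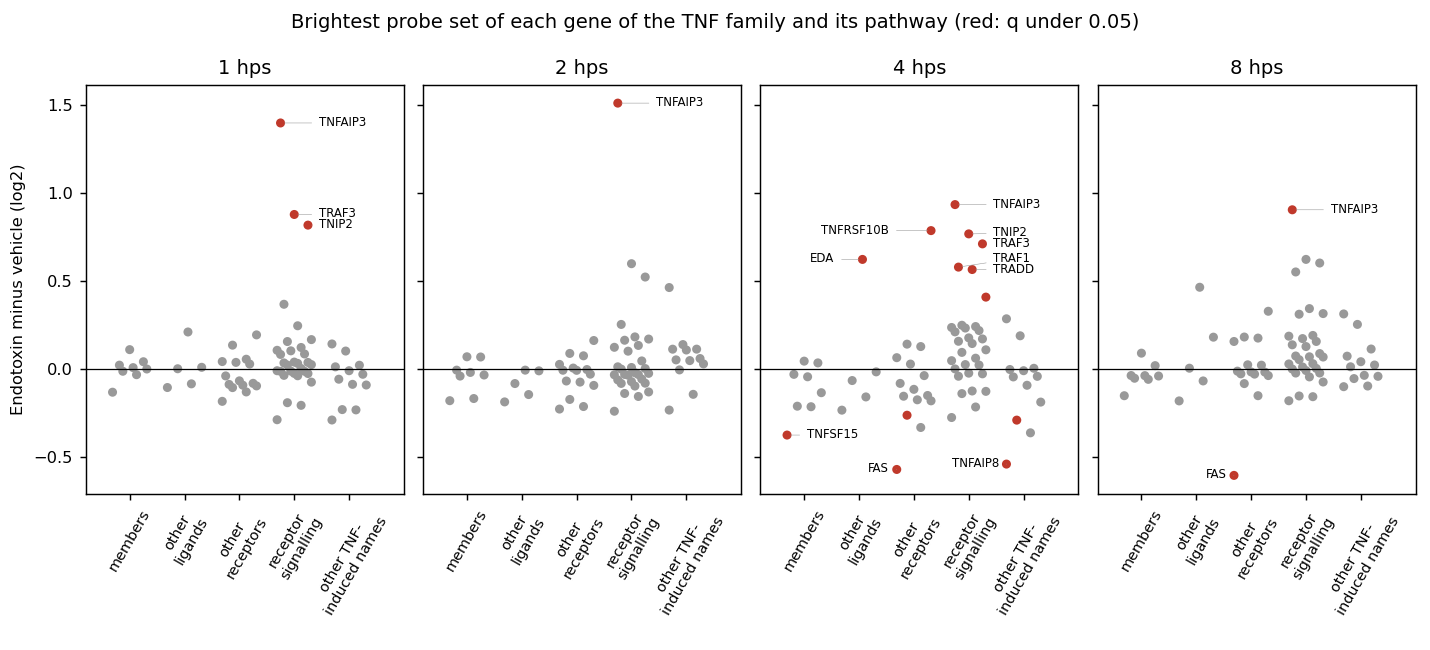
Endotoxin minus vehicle on the log2 scale (vertical axis) of the brightest probe set of each measured gene, by gene list (horizontal axis) and time (panels), with genes at q under 0.05 in red and named where the change passes 0.5 or the gene is a member. TNFSF15 is the red member at 4 hps, TNFAIP3 is red at all 4 times with 0.90 to 1.51, and FAS is red and low at 4 and 8 hps.

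Some markers of other cell types were called at 4 hps. Called lower, as were 3.13% of all probe sets, were 1 of 9 measured T cell markers (CD8A), 1 of 6 B cell markers (CD79B), 1 of 6 erythroid markers (HBAD, with TAL1 called higher, as were 4.95% of all) and 1 of 8 fibroblast markers (COL3A1), and the median differences of these lists were -0.10, -0.25, -0.18 and -0.16. Of the macrophage markers CYBB, TLR4 and LYZ were called higher and TLR2 lower, with a list median of -0.02. The mean level of the T cell list ran from 5.29 to 5.41 on the vehicle arrays at 4 hps and from 5.22 to 5.35 on the endotoxin arrays. In the same order, the B cell list ran from 4.71 to 4.76 and from 4.50 to 4.68, and the erythroid list from 6.78 to 6.81 and from 6.54 to 6.73. The fibroblast list ran from 4.82 to 4.84 and from 4.66 to 4.84, and the macrophage list from 9.65 to 9.82 and from 9.64 to 9.69. Single markers of other cell types were bright, with a mean of 10.40 for CD28 and 8.88 for TAL1. Against the other vehicle arrays 0 of the markers of these other cell types were called, and 2 macrophage markers were called lower. The part of these shifts, and of the actin signal difference, in the member results at 4 hps was not tested beyond the covariate fit given above. That fit separates dose from actin signal poorly at 4 hps. HD11 is a single line, so the markers of other cell types give no count of such cells.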

How the data were processed

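The authors deposited log2 RMA values of 20 arrays (background corrected, quantile normalized, median polish), which tie the arrays to 1 distribution and compress small changes of dim probe sets. Their table of log2 ratios and q values was used for gene names alone. Genome build and probe sequences are not given in the sources used here. Members and gene lists were chosen with earlier results of these data known.

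Limma 3.58.1 under R 4.3.3 was fitted with 8 group terms and replication, the model of the study's methods, to 38439 probe sets, the 96 controls of the manufacturer excluded (10 residual and 5.13 prior degrees of freedom). Dose was tested per time by moderated tests, interaction and time by moderated F tests, with histogram q values of 20 bins. The study's methods do not state the number of bins, and 20 was chosen here. At 4 hps 3106 probe sets were called, more than the differentially expressed genes that the study reported at that time. Calls at 4 hps near the threshold may therefore not be calls of the study. The cause of the mismatch was not tested. The steps were tested on simulated data. The methods mention different days for the RNA and QPCR work, and the sample titles give biological replicate numbers alone. That these numbers pair the arrays was assumed, as in the study's model. Over probe sets, replication 1 minus replication 2 correlated at -0.141, 0.236, 0.0684 and 0.113 between treatments at 1, 2, 4 and 8 hps. P-values measure the spread between these cultures of 1 line. Array pairs correlated at 0.991 to 0.998 and 0 held identical values.

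Every member probe set is named, with list genes by the highest mean, or those called. Gene names were matched to RefSeq's table for GRCg7b for synonyms and neighbours. Alternatives varied the replicate term, adjustment, moderation, weights, scaling, low values, reference arrays and the actin signal, and left out arrays in turn.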

Additional observations from a re-analysis of the deposited data

How the results depend on the processing

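At 1 and 2 hps 0 of 22 member probe sets were called under every alternative run. At 4 hps, where 1 was called, 0 were called with no replicate block, with replication as a random block, with the arrays of that time alone, with the vehicle arrays of all times or of the other 3 times as reference, and with the actin signal difference as a covariate. There were 2 with limma's trend and robust options, with cyclic loess, with centring on ribosomal proteins and among the brighter 19219 probe sets, which do not include TNFSF15 GgaAffx.4492.1.S1_at. The added calls were TNFSF10 Gga.8408.2.S1_s_at or TNFRSF1B GgaAffx.12029.1.S1_at. At 8 hps, where 0 were called, there was 1 with the vehicle arrays of all times as reference and 2 with those of the other 3 times, namely TNFSF10 Gga.8408.2.S1_s_at (-0.26) and TNFSF15 GgaAffx.4492.1.S1_at (-0.23, q = 0.0463). Both references take in the vehicle arrays at 4 hps, which had the highest group mean for each of these probe sets. Over the 4 times, where 0 were called, there was 1 with the random block, with cyclic loess and among the brighter probe sets, each time TNFSF10 Gga.8408.2.S1_s_at. The share of all probe sets called was counted for the main fit and for 4 hps against the other vehicle arrays. For the other alternatives and for arrays left out it was not, so those member counts cannot be set against the whole array.

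With an array or a replication left out in turn, the count ran from 0 to 3 at 4 hps, from 0 to 1 for the interaction and from 0 to 1 over the 4 times, and stayed at 0 at 1, 2 and 8 hps. The 3 came without vehicle replicate 2 at 4 hps, when TNFRSF1B Gga.5148.1.S1_at and Gga.5148.1.S1_s_at were called higher. Benjamini-Hochberg adjustment and array weights left the counts as they were. Among 3751 alternative values of single probe sets, 3725 kept their side of the threshold and direction or were uncalled in both, 10 lost and 16 gained a call, and 349 uncalled values changed sign. The cause of these changes was not tested. With 3 against 2 arrays per time the number of arrays limits the precision of each value, and uncalled differences reached 0.50 on the log2 scale at 4 hps (TNFRSF1B Gga.5148.1.S1_at, interval 0.10 to 0.90).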
